A study of Mus musculus with 13 samples.

Results

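The 9 genes described here, Gata6, Gata4, Sox17, Sox7, Foxa2, Hnf4a, Foxq1, Pdgfra and Dab2, are regulators of primitive endoderm identity. They were chosen by name, as the rows of the count table whose Ensembl identifier maps to these symbols in the GRCm38 annotation, and are 9 of 38377 genes. The series asks what loss of Xist, the RNA that coats and silences an X chromosome in female mouse cells, does in 2 kinds of stem cell line. RNA was sequenced in bulk from 13 libraries in 6 groups. Extraembryonic endoderm stem cells (XEN), grown in DMEM with serum, were wild type (WT, 2 libraries), carried a deletion of the paternal Xist allele (dXist, 3), were WT and given 5-aza-2'-deoxycytidine at 20 uM, an inhibitor of DNA methylation (Aza, 2), or were dXist and given Aza (2). Epiblast stem cells (EpiSC), kept on matrigel with FGF2 and Activin, were WT (2) or heterozygous for an Xist deletion (also called dXist here, 2). No label says that libraries of a group came from separate clones or cultures, so each p-value reflects library-to-library spread alone, which may be technical.

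Primitive endoderm is the lineage that buds from the inner cell mass of the mouse blastocyst and makes the visceral and parietal endoderm of the yolk sacs, and XEN cells are its stem cell counterpart in culture. In the embryo, FGF signalling favours the GATA factor GATA6 over the epiblast factor NANOG. The receptor PDGFRA, the HMG-box factor SOX17, the second GATA factor GATA4 and then SOX7 follow. FOXA2 and HNF4A are transcription factors of the visceral endoderm, FOXQ1 is a forkhead transcription factor, and DAB2 is the endocytic adaptor that links receptors such as megalin to clathrin in absorptive endoderm. EpiSC model the postimplantation epiblast, the neighbouring lineage that forms the embryo proper.

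RefSeq promoter windows (GRCm38.p6, the 250 bases before each annotated start) were matched for 4 of the 9 members, Foxa2, Hnf4a, Pdgfra and Dab2. They are shown because these members span the range from Dab2, the member with the highest EpiSC level, to Hnf4a, which had no EpiSC count, and because Aza inhibits the methylation of CG sites. Capitals mark each CG and each match to the GATA-factor words AGATAA and TGATAA on either strand, and a window that runs into an annotated exon is cut before it.
Dab2, chr15:6299539-6299787 (plus): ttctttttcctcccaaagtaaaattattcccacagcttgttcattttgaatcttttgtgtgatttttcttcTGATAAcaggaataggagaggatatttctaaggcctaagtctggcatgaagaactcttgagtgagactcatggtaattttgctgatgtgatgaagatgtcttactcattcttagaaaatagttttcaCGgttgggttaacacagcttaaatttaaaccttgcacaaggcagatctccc
Dab2, second start, chr15:6386498-6386597 (plus): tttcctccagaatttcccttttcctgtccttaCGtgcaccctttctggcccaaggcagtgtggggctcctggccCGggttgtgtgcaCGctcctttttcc
Hnf4a, chr2:163506607-163506807 (plus): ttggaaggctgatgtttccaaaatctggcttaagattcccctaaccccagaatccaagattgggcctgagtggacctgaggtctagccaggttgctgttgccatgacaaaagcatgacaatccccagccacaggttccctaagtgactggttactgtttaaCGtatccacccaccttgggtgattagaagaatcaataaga
Pdgfra, chr5:75152001-75152250 (plus): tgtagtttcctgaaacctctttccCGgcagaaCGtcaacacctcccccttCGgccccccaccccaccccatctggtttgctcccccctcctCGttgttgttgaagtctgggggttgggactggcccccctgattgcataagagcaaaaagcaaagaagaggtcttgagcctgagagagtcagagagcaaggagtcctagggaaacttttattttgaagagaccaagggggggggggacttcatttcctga
Foxa2, chr2:148046970-148047219 (minus): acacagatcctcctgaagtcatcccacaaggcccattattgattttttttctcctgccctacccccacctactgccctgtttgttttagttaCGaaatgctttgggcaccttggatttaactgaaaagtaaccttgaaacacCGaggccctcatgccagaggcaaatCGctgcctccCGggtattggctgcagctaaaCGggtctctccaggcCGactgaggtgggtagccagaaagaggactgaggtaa
Over the full 250 bases, the first Dab2 window held 2 CG and 1 TGATAA, the second Dab2 window 17 CG, the first Hnf4a window 3 CG and 1 AGATAA (it runs into the exon and is not shown), and the Pdgfra window 4 CG. The Foxa2 window shown held 6 CG, and 2 other Foxa2 windows, not shown, held 20 CG, and 13 CG with 1 AGATAA. A second Hnf4a window, which begins inside an annotated exon and is not shown, held 4 CG. Across 32851 mouse promoter windows of the same length the median was 6 CG (quartiles 2 and 16). AGATAA was present in 9.99% of them, TGATAA in 7.94% and either word in 16.6%. The 8 windows of these 4 genes therefore include CG-poor and CG-rich windows of the same gene, as in Dab2. Most of the 17 CG of the second Dab2 window lie past the bases shown, where it runs into an annotated exon. No methylation was measured in these libraries.

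On GRCm38 with the GENCODE vM21 annotation, Gata6 lies at chr18:11052064-11085635 (plus strand), Gata4 at chr14:63198922-63271692 (minus), Sox17 at chr1:4490931-4497354 (minus) and Sox7 at chr14:63943673-63950732 (plus). Foxa2 lies at chr2:148042877-148046969 (minus), Hnf4a at chr2:163506808-163572910 (plus), Foxq1 at chr13:31556134-31560976 (plus), Pdgfra at chr5:75152292-75198215 (plus) and Dab2 at chr15:6299788-6440712 (plus). None of the 9 is X-linked. The Foxq1 exon shares 66.1% of its bases with the opposite-strand gene A530084C06Rik, which held 0 to 200 counts per library, and Sox17 exons share 16.8% with the opposite-strand transcript Gm37587, at 0 to 75 counts. No source used here gives the strand setting of the counting, so for these overlaps reads of a gene and its antisense partner may not be separable.

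Totals ran from 5848454 to 35247432 counts per library. The unit below is CPM on TMM-scaled library sizes, and values compared between genes are divided by the length of the merged exons (CPM per kb). Xist was at 1550.2 and 1586 CPM in WT XEN and at 1214 and 1626 CPM with Aza. It was at 1.16 to 4.78 CPM in the 3 dXist XEN libraries and at 14.6 and 242 CPM in the Aza-treated dXist libraries 1 and 2, so the library labelled treated dXist 2 stood above the other deleted libraries. In EpiSC it was at 815 and 206 CPM in WT and at 0.435 and 0.276 CPM in dXist. Transcripts without poly(A) tails (mitochondrial ribosomal RNA and Rn7sk) took 10.4% to 13.5% of counts in both Aza-treated WT XEN libraries and in library 2 of each EpiSC group, and 0.0152% to 0.279% in the other 9. Within WT XEN, this library type and Aza cannot be told apart. Untreated dXist XEN library 3 differed from the mean of dXist libraries 1 and 2 by over 1.5-fold in 41% of genes. Libraries 1 and 2 differed this far in 15% of genes, the WT XEN libraries in 35% and the treated dXist libraries in 56.6%. Such ratios between single libraries, here and below, have 0.5 CPM added to each level.

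The 9 regulators were present in every XEN library, and their summed level was 4218 to 4736 CPM in WT XEN, 4470 to 5486 CPM in dXist, 2426 to 2522 CPM in WT with Aza and 3339 to 4201 CPM in dXist with Aza. In EpiSC the sum was 37.1 to 97.0 CPM in WT and 53.7 to 81.7 CPM in dXist. The XEN label was therefore matched by its markers. Of the epiblast factors, Pou5f1 was at 0.734 CPM, Nanog at 0.503 CPM and Sox2 at 0.05 CPM on average in WT XEN. The summed epiblast list reached 534 to 951 CPM there, nearly all of it Lin28a (509 CPM) and Dnmt3b (185 CPM). In WT EpiSC the epiblast list summed to 1758 to 2246 CPM, with all 12 of its genes detected. Fibroblast markers summed to 684 to 810.1 CPM in WT EpiSC and to 16.5 to 18.3 CPM in WT XEN. Of the 11 tested, 10 were called higher in WT EpiSC by edgeR, against 16.8% of all genes. The part of the fibroblast markers in the EpiSC levels of the members was not tested. Mesendoderm markers summed to 1.84 to 2.90 CPM and trophoblast markers to 3.28 to 8.89 CPM in WT XEN. In bulk RNA, fewer cells of a type and less RNA per cell cannot be told apart.

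**Figure D1:**
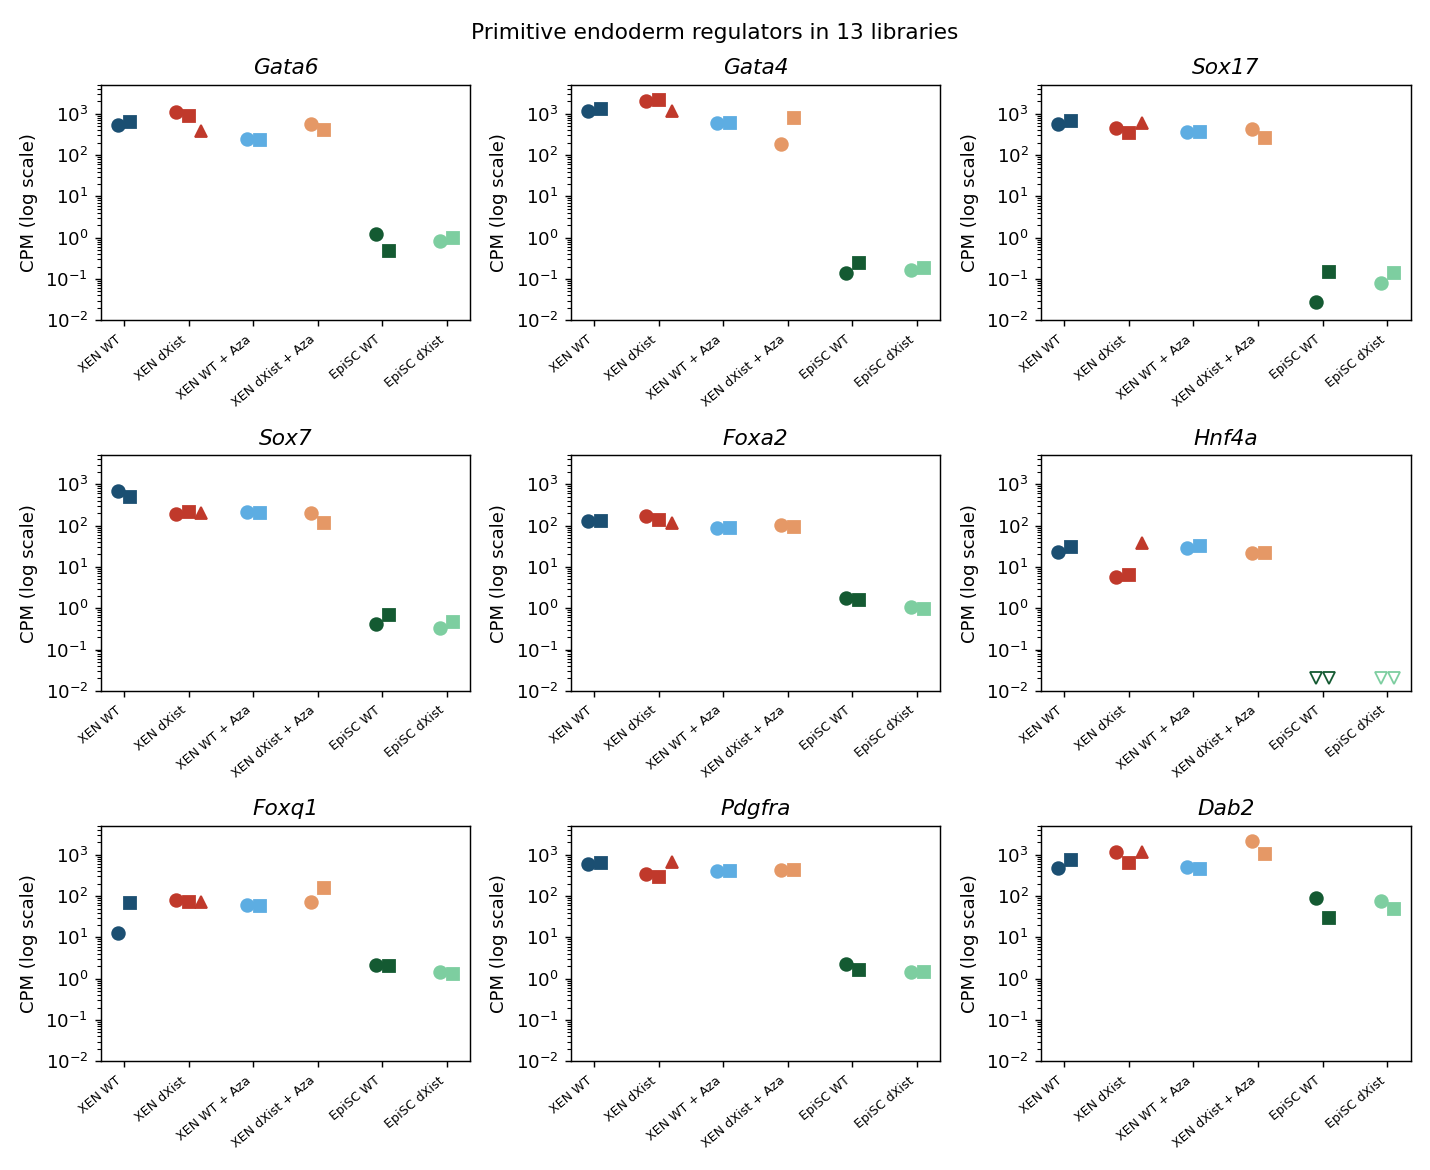
CPM of each regulator (log axis) in each of the 13 libraries, by group. Circles, squares and triangles are replicates 1, 2 and 3, and open downward triangles at the bottom of the axis mark libraries with 0 counts. Every XEN library sits above every EpiSC library for all 9 genes, and Dab2 has the highest EpiSC values, 30.2 to 89.0 CPM.

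Per length, Gata4 was the most abundant member in WT XEN at 323 CPM per kb, followed by Sox7 at 178 CPM per kb, Sox17 at 132 CPM per kb and Gata6 at 88.1 CPM per kb. Dab2 came next at 83.6 CPM per kb, its libraries overlapping those of Gata6. Pdgfra was at 61.4 CPM per kb and Foxa2 at 55.4 CPM per kb. Foxq1 at 8.48 CPM per kb and Hnf4a at 5.47 CPM per kb closed the order, and their libraries overlapped too. In dXist XEN, Gata4 again led at 455 CPM per kb with no overlap with the next gene, whereas from Dab2 (135 CPM per kb) down to Pdgfra (43.6 CPM per kb) each neighbour overlapped the next. Sox7 stood second in WT XEN and sixth in dXist XEN, at 60.5 CPM per kb. In dXist XEN with Aza, Dab2 had the highest mean, 222 CPM per kb, but its libraries overlapped those of Gata4 at 126 CPM per kb. In WT EpiSC the order was led by Dab2 at 8.12 CPM per kb, then Foxa2 at 0.702 and Foxq1 at 0.439 CPM per kb, and the GATA and SOX factors lay between 0.0182 (Sox17) and 0.167 CPM per kb (Sox7).

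The first comparison asks how far the regulators separate the 2 cell types. All 9 were lower in WT EpiSC than in WT XEN, and each fell past the threshold of adjusted p under 0.05 (edgeR's quasi-likelihood test with Benjamini-Hochberg adjustment over 19733 genes). For reference, 14.1% of all tested genes were called lower and 30.8% were called in either direction. No EpiSC library overlapped a XEN library for any member, a pattern that 30% of all genes showed in the lower direction. The members' median log2 fold change was -9.33, or -8.95 with Hnf4a set at its bound, against 0.13 over all genes. These genes are established endoderm markers chosen with results of these data known, so the direction is a check of the labels.

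The GATA factors were nearly silent in EpiSC. Gata6 was at 524 and 622 CPM in WT XEN and at 1.24 and 0.484 CPM in WT EpiSC, a log2 fold change of -9.33 (SE 0.75, adjusted p = 8.8e-05 by edgeR). Gata4 was at 1192 and 1332 CPM in WT XEN and at 0.141 and 0.242 CPM in WT EpiSC, where it rested on 5 counts per library, a log2 fold change of -12.72 (SE 0.65, adjusted p = 3.2e-05 by edgeR). The ratio of mean CPM was 664 for Gata6 and 6589 for Gata4. Gata6, which acts first in the lineage, held 44 and 10 counts in the WT EpiSC libraries. It thus lay above the floor of 3 counts per library, and Gata4 was the 1 of the pair close to it.

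The SOX factors showed the same separation. Sox17 was at 574 and 681 CPM in WT XEN and at 0.0282 and 0.145 CPM in WT EpiSC, the latter from 1 and 3 counts, with a log2 fold change of -12.97 (SE 0.71, adjusted p = 3.2e-05 by edgeR). Sox7 was at 686 and 488 CPM in WT XEN and at 0.423 and 0.678 CPM in WT EpiSC, with a log2 fold change of -10.08 (SE 0.48, adjusted p = 3.2e-05 by edgeR). Sox18, their F-group relative, was at 0.0654 CPM in WT XEN and 0.421 CPM in WT EpiSC and was not called (adjusted p = 0.134). In dXist cells Sox18 had 0 counts in XEN and was at 0.389 CPM in EpiSC, and it was called higher there (adjusted p = 0.0109 by edgeR).

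Among the forkhead factors and HNF4A, Foxa2 was at 131.3 and 131.1 CPM in WT XEN and at 1.78 and 1.55 CPM in WT EpiSC (log2 fold change -6.30, SE 0.35, adjusted p = 3.2e-05 by edgeR). Hnf4a, the nuclear receptor of the list, was at 23.2 and 29.6 CPM in WT XEN and had 0 counts in all 4 EpiSC libraries, so it was at least 494-fold lower in WT EpiSC (floor of 3 counts over the group, adjusted p = 0.00292 by edgeR). Foxq1 was at 12.5 and 69.7 CPM in WT XEN and at 2.17 and 2.08 CPM in WT EpiSC (log2 fold change -4.27, SE 0.69, adjusted p = 0.00225 by edgeR). It was -5.04 without WT XEN library 1 and -2.49 without WT XEN library 2, called in both. The WT XEN libraries thus differed 5.59-fold from each other in Foxq1, and 2 of 9 members (Foxq1 and Dab2) were past 1.5-fold between them, against 35% of genes.

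The receptor and the adaptor differed in how far they fell. Pdgfra was at 602 and 629 CPM in WT XEN and at 2.23 and 1.65 CPM in WT EpiSC (log2 fold change -8.30, SE 0.57, adjusted p = 5.7e-05 by edgeR). Dab2 was at 474 and 754 CPM in WT XEN and kept 89.0 and 30.2 CPM in WT EpiSC, a ratio of 10.3 (log2 fold change -3.37, SE 0.60, adjusted p = 0.00363 by edgeR). The log2 fold change was -4.31 without WT EpiSC library 1 and -2.78 without WT EpiSC library 2, called in both. Dab2 was thus the only member above 3 CPM in EpiSC. Its 2 lower EpiSC values, 30.2 and 48.1 CPM, were those of the libraries rich in transcripts without poly(A) tails, and the 2 others were at 89.0 and 76.3 CPM, so its EpiSC level varied with library type.

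The dXist libraries gave the same directions in a comparison that shares no library with the first. All 9 were lower in dXist EpiSC than in dXist XEN, all past the threshold, against 16.9% of all genes called lower. No library overlapped for any member, against 32.2% of genes that did not overlap in this direction. The median log2 fold change was -8.97, or -8.36 with Hnf4a at its bound, against 0.09 over all genes. Gata4 differed most (log2 fold change -13.27, SE 0.65, adjusted p = 8.2e-06 by edgeR) and Dab2 least (log2 fold change -3.96, SE 0.60, adjusted p = 0.00121 by edgeR). Foxa2 had a log2 fold change of -7.11, Foxq1 of -5.69 and Hnf4a was at least 329-fold lower.

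**Figure D2:**
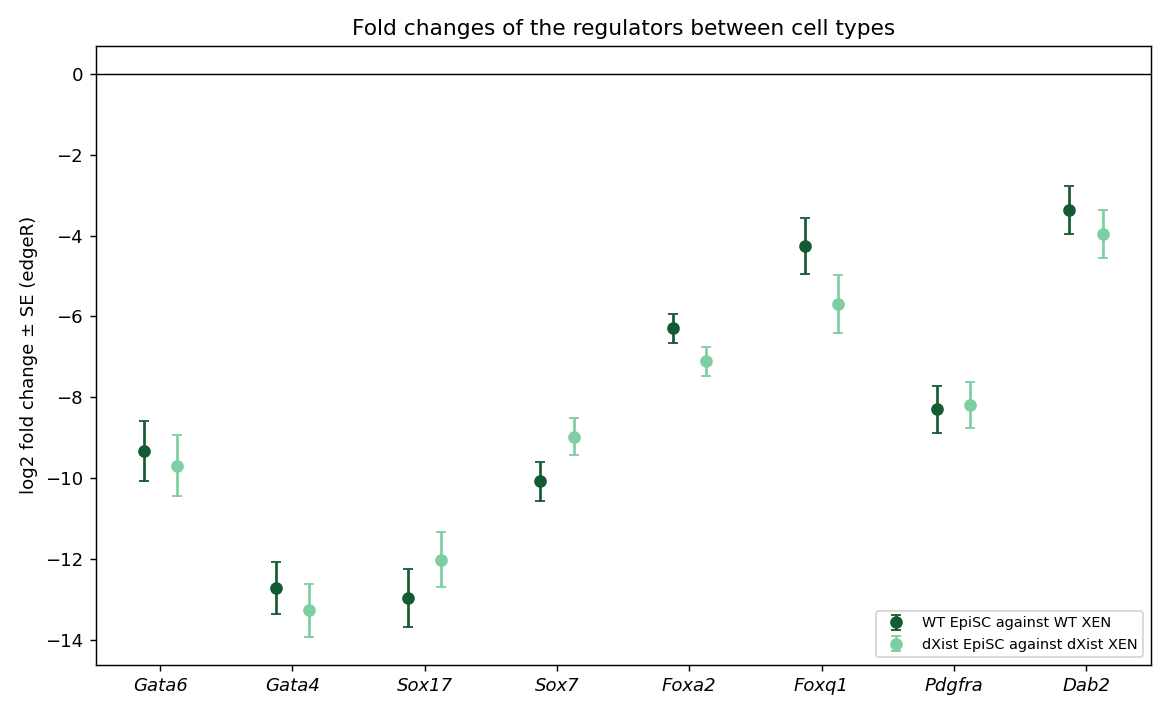
Log2 fold change of 8 regulators in EpiSC against XEN (y axis), with bars for the SE of the edgeR fit, in WT (dark) and dXist (light) cells. Hnf4a is left out because it had 0 counts in EpiSC. The WT values run from -12.97 for Sox17 to -3.37 for Dab2, and all lie below 0.

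Lists of related genes were read beside the members. The closest paralogs of the members were not called between WT EpiSC and WT XEN (0 of 7 tested, median log2 fold change -0.25). In dXist EpiSC against dXist XEN, 2 of the 7 were called higher (Pdgfrb and Sox18) and 2 lower (Hnf4g and Gata3), with a median of -0.41. Of these, Sox18 and Hnf4g were at no more than 0.389 and 0.778 CPM in either group. In WT XEN, Gata3 was at 1.77 CPM, Foxa3 at 1.73 CPM and Gata2 at 0.371 CPM, and Foxa1 had 0 counts. The PDGFRA paralog Pdgfrb was at 16.4 CPM and the DAB2 paralog Dab1 at 22.6 CPM in WT XEN. Of 17 endoderm transcription factor partners tested, 4 were called higher and 5 lower in WT EpiSC. Otx2, a homeodomain factor of the epiblast and anterior visceral endoderm, rose from 0.132 to 36.2 CPM (log2 fold change 8.06, adjusted p = 0.000185 by edgeR).

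In FGF and PDGF signalling, 12 of 26 tested genes were called higher and 5 lower in WT EpiSC, with a median log2 fold change of 0.88. Fgfr3 and Fgfr4, both FGF receptors, fell from 160 to 0.343 CPM and from 39.5 to 0.704 CPM (adjusted p = 0.000152 and 0.000175 by edgeR). Dusp6, a phosphatase induced by ERK signalling, rose from 12.1 to 452 CPM (adjusted p = 0.000419 by edgeR). The EpiSC medium contained FGF2 and the XEN medium was not stated to, so medium and cell type cannot be told apart here.

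Among 20 endocytic partners of DAB2, 1 was called higher and 6 lower in WT EpiSC, with a median log2 fold change of -0.75. Cubn, the endocytic receptor of absorptive endoderm, fell from 133 to 1.89 CPM (log2 fold change -6.13, adjusted p = 6.9e-05 by edgeR). Of the products of the lineages that primitive endoderm makes, 11 of 16 tested visceral and 18 of 20 parietal endoderm genes were called lower in WT EpiSC, with medians of -5.20 and -4.64. Lama1, a basement membrane laminin chain made by parietal endoderm, was at 22194 CPM in WT XEN and 8.66 CPM in WT EpiSC (adjusted p = 6.9e-05 by edgeR), and Snai1, a transcriptional repressor on the same list, was at 209 and 2.19 CPM (adjusted p = 3.2e-05 by edgeR). The parietal list summed to 101330 to 139487 CPM in WT XEN and the visceral list to 1406 to 1884 CPM.

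The second comparison asks whether the regulators differ with loss of Xist in untreated XEN cells. None of the 9 passed the threshold by edgeR, with 1 member at an unadjusted p under 0.05, and 4 of 18393 genes were called in all (0.0217%), while 1973 genes had an unadjusted p under 0.05. DESeq2 called 506 genes and 1 member, Sox7. The members' median log2 fold change was 0.12, against 0.00 over all genes. The groups did not overlap for 2 members, Sox7 (lower) and Foxq1 (higher), where 14.8% of all genes showed no overlap in the lower and 13.6% in the higher direction.

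Sox7 was the member that differed most. It was at 686 and 488 CPM in WT XEN and at 191, 209 and 199 CPM in dXist XEN. All 3 dXist libraries lay below both WT libraries, and they were close to each other (199 ± 8.77 CPM, SD, n = 3). The mean was 2.94-fold lower, with a log2 fold change of -1.56 (SE 0.32, adjusted p = 0.2002 by edgeR). Over 12 alternative analyses the log2 fold change ran from -1.74 to -1.32 and the adjusted p from 0.00371 to 0.739, and 2 of them called it (DESeq2 and no filter on low counts).

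Sox17, the other SOX factor, was at 574 and 681 CPM in WT and 444, 342 and 593 CPM in dXist XEN, and the groups overlapped (log2 fold change -0.45, SE 0.35, adjusted p = 0.673 by edgeR). Both GATA factors split the dXist libraries. Gata6 was at 524 and 622 CPM in WT and 1076, 881 and 384 CPM in dXist XEN, so dXist libraries 1 and 2 lay above WT and library 3 below it (log2 fold change 0.43, SE 0.43, adjusted p = 0.750 by edgeR). Gata4 was at 1192 and 1332 CPM in WT and 2008, 2116 and 1202 CPM in dXist XEN, with library 3 inside the WT range (log2 fold change 0.48, SE 0.57, adjusted p = 0.792 by edgeR).

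Hnf4a and Pdgfra split the dXist libraries the other way. Hnf4a was at 23.2 and 29.6 CPM in WT and 5.61, 6.32 and 38.6 CPM in dXist XEN (log2 fold change -0.64, SE 0.74, adjusted p = 0.788 by edgeR). Without dXist library 3 the log2 fold change was -2.17 (SE 0.34) and the adjusted p 0.0239 by edgeR, so the call depended on this library. Pdgfra was at 602 and 629 CPM in WT and 353, 285 and 675 CPM in dXist XEN (log2 fold change -0.49, SE 0.40, adjusted p = 0.682 by edgeR). In all, 5 of 9 members differed over 1.5-fold between library 3 and the mean of the other dXist libraries, against 41% of genes: with 0.5 CPM added to each level, Hnf4a, Pdgfra and Sox17 were 6.05-fold, 2.12-fold and 1.51-fold higher in library 3, and Gata6 and Gata4 2.55-fold and 1.72-fold lower. The share of members was thus near that of all genes.

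The last 3 members showed smaller or less even differences. Foxa2 was at 131.3 and 131.1 CPM in WT and 175, 140.2 and 116 CPM in dXist XEN (log2 fold change 0.12, SE 0.28, adjusted p = 0.912 by edgeR). Foxq1 was at 12.5 and 69.7 CPM in WT and 80.2, 73.4 and 71.1 CPM in dXist XEN (log2 fold change 0.85, SE 0.63, adjusted p = 0.649 by edgeR). The dXist libraries all lay above WT, but library 2 of WT was only just below them: the log2 fold change was 0.073 without WT library 1 and 2.63 without WT library 2, and neither was called. Dab2 was at 474 and 754 CPM in WT and 1154, 621 and 1191 CPM in dXist XEN (log2 fold change 0.68, SE 0.45, adjusted p = 0.607 by edgeR), and the groups overlapped.

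**Figure D3:**
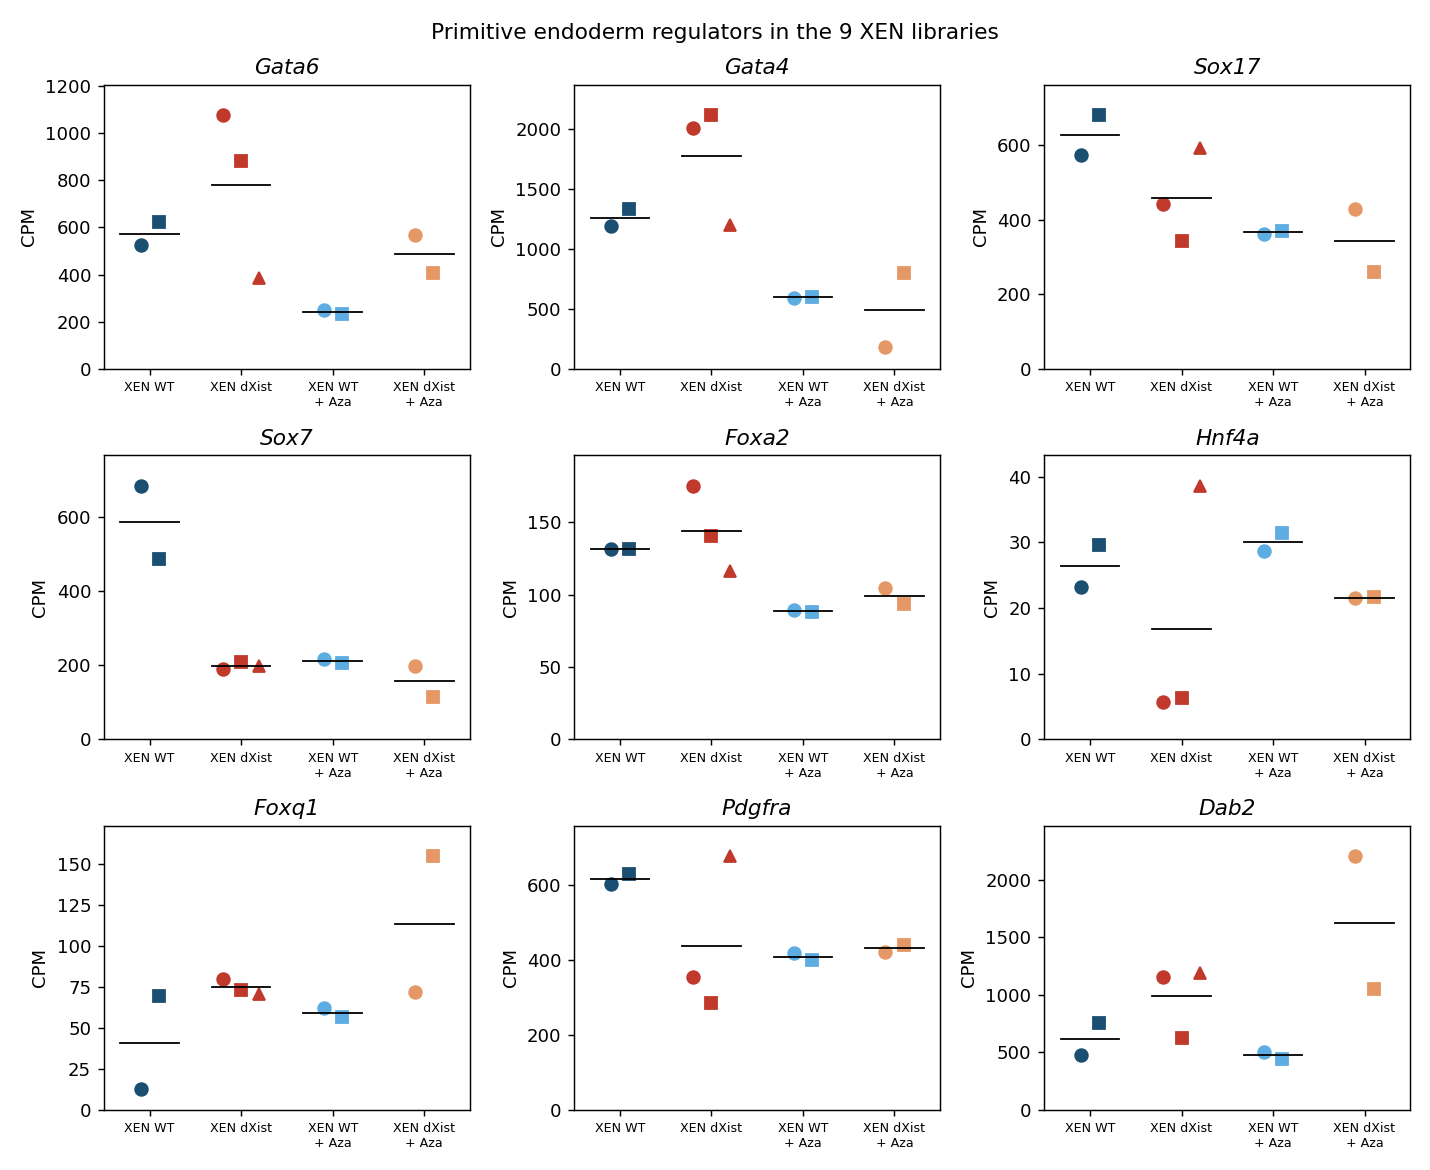
CPM of each regulator (linear axes from 0) in the 9 XEN libraries. Circles, squares and triangles are replicates 1, 2 and 3, and the line is the group mean. The 3 dXist libraries lie at 191 to 209 CPM in Sox7, below both WT libraries, and dXist library 3 lies apart from the other 2 in Hnf4a (38.6 CPM), Pdgfra (675 CPM), Gata6 (384 CPM) and Gata4 (1202 CPM).

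None of the 6 lists of related genes held a called gene in dXist against WT XEN by edgeR, and their median log2 fold changes ran from -0.51 (parietal products) to 0.44 (visceral products). The 4 genes with the smallest adjusted p follow. Pdgfrb, the paralog of Pdgfra, was at 16.4 CPM in WT and 1.52 CPM in dXist XEN (log2 fold change -3.43, SE 0.60, adjusted p = 0.152 by edgeR, called in 5 of 12 alternatives). Lrp1, an endocytic receptor, was at 89.8 and 11.2 CPM (log2 fold change -2.99, adjusted p = 0.192 by edgeR, called in 4 of 12). Pdgfb, a PDGF ligand, was at 0.245 CPM in WT and had 0 counts in dXist XEN (adjusted p = 0.279 by edgeR). Cubn was at 133 and 50.1 CPM (log2 fold change -1.41, adjusted p = 0.289 by edgeR, called in 4 of 12). Summed epiblast markers were 534 to 951 CPM in WT and 193 to 669 CPM in dXist XEN, with 6 of 12 at 0 counts in dXist, Sox2 and Otx2 among them. Trophoblast markers summed to 3.28 to 8.89 CPM in WT and 5.67 to 8.88 CPM in dXist XEN, and mesendoderm markers to under 3 CPM in both. Fibroblast markers summed to 16.5 to 18.3 CPM in WT, nearly all of it Pdgfrb, and to 2.24 to 3.63 CPM in dXist XEN, where Pdgfrb was at 1.52 CPM. The median log2 fold change was -1.15 over the 7 epiblast markers tested, 6 of them negative, and -1.86 over the 4 fibroblast markers tested, and none of these was called by edgeR. Their part in the member values was not tested.

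The third comparison asks what Aza adds in WT XEN. None of the 9 passed the threshold by edgeR, where 0.582% of genes were called (101 higher and 6 lower). An unadjusted p under 0.05 was found for 2 members and for 2279 of 18393 genes. DESeq2 called 646 of 18393 genes and 1 member, Sox7. The median log2 fold change of the members was -0.51, against -0.04 over all genes. For 6 of 9 members both treated libraries lay below both untreated ones, a pattern found in 31.7% of all genes. The treated libraries agreed closely with each other but were the library type rich in transcripts without poly(A) tails, so in none of these values can Aza and library type be told apart.

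Both GATA factors were lower in the treated libraries. Gata6 was at 524 and 622 CPM without and 249 and 232 CPM with Aza (log2 fold change -1.17, SE 0.47, adjusted p = 0.355 by edgeR). Gata4 was at 1192 and 1332 CPM without and 592 and 598 CPM with Aza (log2 fold change -1.003, SE 0.62, adjusted p = 0.550 by edgeR). Sox7 was at 686 and 488 CPM without and 217 and 206 CPM with Aza (log2 fold change -1.38, SE 0.36, adjusted p = 0.174 by edgeR and 0.0279 by DESeq2, 0.0279 to 1 over the alternatives). Its treated WT level was close to the 191 to 209 CPM of untreated dXist XEN.

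Sox17 was at 363 and 371 CPM with Aza (log2 fold change -0.69, SE 0.39, adjusted p = 0.513 by edgeR). Foxa2 was at 89.2 and 88.2 CPM (log2 fold change -0.48, SE 0.31, adjusted p = 0.569) and Pdgfra at 417 and 400.1 CPM (log2 fold change -0.51, SE 0.44, adjusted p = 0.682). The 3 members whose groups overlapped were Hnf4a at 28.7 and 31.4 CPM, Foxq1 at 62.0 and 56.7 CPM and Dab2 at 505 and 442 CPM. Dab2 had a log2 fold change of -0.29, which turned to 0.74 when library type was a term in a fit of all 13 libraries, and neither value was called.

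The fourth comparison asks what Aza adds in dXist XEN, where all libraries were of the same type. The titles give the treated libraries the numbers 1 and 2 of untreated dXist libraries, without saying what a number marks. The main fit did not pair them. None of the 9 passed the threshold by edgeR, where 0.0761% of genes were called (13 higher and 1 lower). An unadjusted p under 0.05 was found for 2 members and for 4921 of 18393 genes. DESeq2 called 2905 of 18393 genes and 1 member, Gata4. The median log2 fold change of the members was -0.51, against -0.02 over all genes. For 2 of 9 members the treated libraries lay below all untreated ones, against 18.3% of all genes.

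Gata4 and Foxa2 were these 2. Gata4 was at 2008, 2116 and 1202 CPM without and 183 and 803 CPM with Aza, a mean 3.60-fold lower (log2 fold change -1.97, SE 0.60, adjusted p = 0.0963 by edgeR). It was called by DESeq2 (adjusted p = 0.00778) and without the filter on low counts. Without treated dXist library 2, which leaves 1 treated dXist library, Gata4 had a log2 fold change of -3.50. Its adjusted p over the 12 alternatives ran from 0.000652 to 0.250. Foxa2 was at 175, 140.2 and 116 CPM without and 104 and 93.2 CPM with Aza (log2 fold change -0.69, SE 0.29, adjusted p = 0.165 by edgeR).

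Gata6, the other GATA factor, was at 1076, 881 and 384 CPM without and 567 and 405 CPM with Aza, and the groups overlapped (log2 fold change -0.83, SE 0.43, adjusted p = 0.245 by edgeR). Sox17 was at 428 and 260 CPM with Aza, against 342 to 593 CPM without (log2 fold change -0.58, SE 0.36). Sox7 was at 199 and 115 CPM with Aza, so that 1 treated library lay within the 191 to 209 CPM of the untreated group (log2 fold change -0.51, SE 0.33).

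Hnf4a was at 21.5 and 21.6 CPM with Aza, between the untreated dXist library 3 (38.6 CPM) and libraries 1 and 2 (5.61 and 6.32 CPM). Its log2 fold change was 0.19 (SE 0.74, adjusted p = 0.891 by edgeR), and 1.72 (SE 0.34, adjusted p = 0.0481) without untreated library 3, which thus decided the call. Pdgfra was at 421 and 438 CPM with Aza, within the untreated range of 285 to 675 CPM. Dab2 was at 2206 and 1048 CPM with Aza (log2 fold change 0.56, SE 0.44, adjusted p = 0.430 by edgeR), and its library 1 held the highest Dab2 level of the 13 libraries. Foxq1 was at 71.7 and 155 CPM with Aza, again wide apart.

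The treated dXist libraries differed from each other by over 1.5-fold in 5 of 9 members, against 56.6% of all genes. With the same 0.5 CPM added, Gata4 was 4.37-fold and Foxq1 2.15-fold higher in library 2, and Dab2, Sox7 and Sox17 were 2.10-fold, 1.72-fold and 1.65-fold higher in library 1. Library 2 is the treated library with 242 CPM of Xist.

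**Figure D4:**
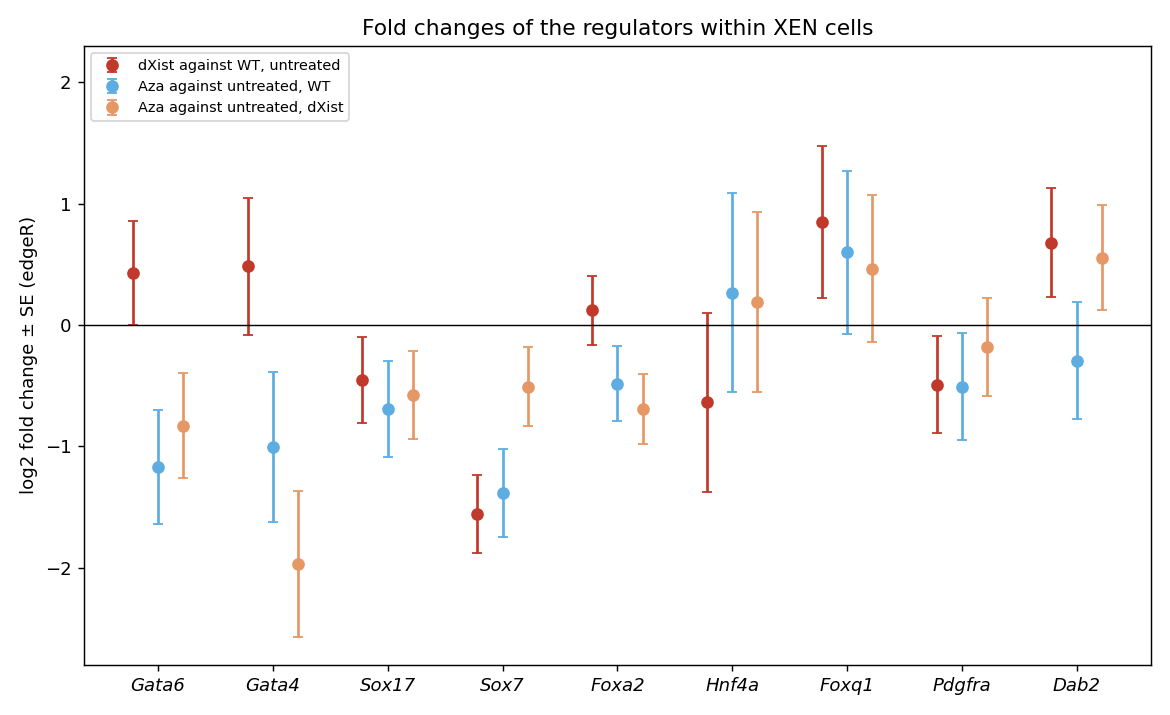
Log2 fold change of each regulator (y axis, bars for the SE of the edgeR fit) for dXist against WT, Aza in WT and Aza in dXist XEN cells. Sox7 lies at -1.56 for dXist against WT and -1.38 for Aza in WT, and Gata4 at -1.97 for Aza in dXist. None of the 27 values passed an adjusted p of 0.05, and the comparisons share control libraries.

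A test of the interaction, the Aza effect in dXist minus that in WT, called none of the 9 by edgeR, where 0.245% of genes were called. No member had an unadjusted p under 0.05, and 1472 of 18393 genes did. Sox7 had an interaction of 0.88 on the log2 scale (SE 0.48, adjusted p = 0.656 by edgeR), Dab2 of 0.85 (SE 0.65, adjusted p = 0.736) and Gata4 of -0.97 (SE 0.83, adjusted p = 0.760). Without treated dXist library 2, which leaves 1 treated dXist library, the Gata4 interaction was -2.48. All of these carry the library type of the treated WT libraries.

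In the 6 lists of related genes, no gene was called for Aza in WT XEN by edgeR. Krt19, a keratin on the parietal list, was at 118 CPM without and 317 CPM with Aza (log2 fold change 1.51, adjusted p = 0.0940 by edgeR and 0.00015 by DESeq2), and the Foxa2 paralog Foxa3 was at 1.73 and 8.67 CPM (adjusted p = 0.244 by edgeR). Nr2f2, a nuclear receptor on the partner list, was at 25.8 CPM without and 5.66 CPM with Aza (log2 fold change -2.10, adjusted p = 0.209 by edgeR and 0.0323 by DESeq2). In dXist XEN, edgeR called 1 gene with Aza, Cubn, which is in both the DAB2 partner list and the visceral product list. Cubn rose from 40.1 to 69.6 CPM in the 3 untreated libraries to 334 and 339 CPM with Aza (log2 fold change 2.59, SE 0.36, adjusted p = 0.0498 by edgeR). It was called in 8 of 12 alternatives, and lost without untreated dXist library 1 (adjusted p = 0.183), without untreated library 2 (0.179), without treated library 1 (0.0888) and in a fit of only the libraries poor in transcripts without poly(A) tails (0.151). Summed trophoblast markers were 12.1 to 12.6 CPM in treated WT and 7.11 to 15.5 CPM in treated dXist XEN, and summed mesendoderm markers 2.99 to 3.98 and 3.47 to 8.22 CPM. Epiblast markers summed to 493 to 501 CPM and 265 to 279 CPM in these groups. Most of this was Lin28a and Dnmt3b, at 355 and 96.6 CPM in treated WT and 154 and 61.3 CPM in treated dXist XEN. Over the 7 epiblast markers tested, the median log2 fold change with Aza was -0.27 in WT (3 positive, 4 negative). In dXist it was 0.80 (4 positive, 3 negative), and no epiblast marker was called by edgeR in either. Their part in the member values was not tested.

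The last comparison asks whether the residual levels in EpiSC differ with the Xist deletion. The filter on low counts passed 6 of the 9 members, and Gata4, Sox17 and Hnf4a, at 10, 4 and 0 counts over both WT libraries, did not pass. None of the 6 was called by edgeR, with 0 members at an unadjusted p under 0.05. Over all genes 0% were called (0 of 17132), although 1741 had an unadjusted p under 0.05. DESeq2 called 492 genes and none of the members. Foxa2 was at 1.78 and 1.55 CPM in WT and 1.06 and 0.967 CPM in dXist EpiSC (log2 fold change -0.69, SE 0.47, adjusted p = 0.674 by edgeR). Foxq1 was at 2.17 and 2.08 CPM in WT and 1.49 and 1.33 CPM in dXist EpiSC (log2 fold change -0.56, SE 0.43, adjusted p = 0.704). Pdgfra was at 2.23 and 1.65 CPM in WT and 1.44 and 1.47 CPM in dXist EpiSC (log2 fold change -0.39, SE 0.45, adjusted p = 0.811). These 3 had no overlap, all lower in dXist, where 22.3% of all genes showed no overlap in that direction. Gata6 (log2 fold change 0.12), Sox7 (-0.46) and Dab2 (0.09) overlapped between the groups. Summed epiblast markers were 1758 to 2246 CPM in WT and 1912.5 to 2438 CPM in dXist EpiSC, trophoblast markers 14.9 to 22.5 and 28.8 to 35.6 CPM, and fibroblast markers 684 to 810.1 and 167 to 229.6 CPM. Over the 11 fibroblast markers tested the median log2 fold change was -1.94, with 10 negative. For 9 of them the groups did not overlap, lower in dXist. All 7 trophoblast markers tested were positive (median 0.53), and of 12 epiblast markers 5 were positive and 7 negative (median -0.05). None of these was called by edgeR. The part of these markers in the member values was not tested.

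To describe which genes shared each member's pattern, the 6 group means (log2 of CPM plus 0.5, centred per gene) were compared with those of 10069 protein-coding genes with a mean of at least 5 CPM over the XEN groups, by the root mean square difference. As a description over 6 groups, the nearest gene to Gata6 was Hs3st1 (0.291), to Gata4 Aqp8 (0.554), to Sox17 Enpep (0.336) and to Sox7 Cemip (0.425). The nearest to Foxa2 was 8030474K03Rik (0.265), to Hnf4a B3gnt3 (0.120), to Foxq1 Tmem163 (0.308), to Pdgfra Cemip (0.304) and to Dab2 Elf1 (0.330). Cemip was the nearest gene for both Sox7 and Pdgfra, and Pdgfra was itself the third nearest to Sox7 (0.438).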

How the data were processed

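The authors deposited raw read counts per gene, not normalized. Per the submitters' processing notes, FastQC, STAR 2.7.9a and featureCounts 2.0.1 were used on GRCm38 (mm10), with no strand setting named. GENCODE vM21 matched 38240 of 38377 identifiers (99.64%). The deposited counts were fitted in R 4.3.3 with edgeR 4.0.16 (TMM, filterByExpr, robust quasi-likelihood F test, Benjamini-Hochberg over all genes, threshold 0.05): 9 XEN libraries in 1 fit (5 residual degrees of freedom), 4 EpiSC libraries (2) and 9 untreated libraries (5). Each SE was obtained by dividing the size of the log2 fold change by the root of its F statistic. The fits were tested on simulated data. DESeq2 1.42.0, other scaling, no filter, library type, leave-one-out and block fits were alternatives. Depth floors are 3 counts and cover counting error only.

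The members and lists were chosen with earlier results of these data known. All members were named, and from each list up to 4 genes of smallest adjusted p could be named; the part of those printed was picked after their values were seen. The nearest-pattern gene was taken as the smallest root mean square difference. Replicate numbers are not said to mark shared cultures, so no block entered the main fits. Deviations of same-numbered XEN libraries from their group means were only weakly correlated. In dXist XEN these means include library 3, which has no treated partner. The correlations therefore cannot show whether treated and untreated dXist libraries were paired.

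Some results that met the naming rule are not reported here.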

Additional observations from a re-analysis of the deposited data

Results flagged for a closer look

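Foxq1 lay on opposite sides of WT in dXist libraries of the 2 cell types, and neither difference was called: all 3 dXist XEN libraries (71.1 to 80.2 CPM) lay above both WT XEN libraries (12.5 and 69.7 CPM), and both dXist EpiSC libraries (1.49 and 1.33 CPM) lay below both WT EpiSC libraries (2.17 and 2.08 CPM). The difference between the effects was -1.42 on the log2 scale (SE 0.85) and did not pass the test (adjusted p = 0.571 by edgeR, 0.189 to 0.892 over the alternatives). The XEN side rested on WT XEN library 1: without it the log2 fold change in XEN was 0.073, and without WT library 2 it was 2.63, against 0.85 with both. The difference between the effects was then -0.64 and -3.19. In addition, the antisense gene A530084C06Rik overlaps 66.1% of the Foxq1 exon.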

How the results depend on the processing

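All 9 members were called lower in EpiSC in each genotype under every alternative run. Among single-member values under the alternatives, 672 kept direction and side of the threshold, 26 reversed and 10 became called. For dXist against WT XEN the members called went from 0 to 1 with DESeq2, with no filter on low counts (Sox7 in both) and with the replicate block (Hnf4a, log2 fold change -2.16, adjusted p = 0.0344), and ranged from 0 to 1 over the leave-one-out fits (Hnf4a without dXist library 3). For Aza in WT XEN 1 was called with DESeq2 (Sox7). For Aza in dXist XEN 1 was called with DESeq2 and with no filter (Gata4). Over the fits that left out 1 untreated dXist library, 0 to 1 was called (Hnf4a without untreated library 3). The fit without treated dXist library 2 leaves 1 treated dXist library. In it Gata4 was at -3.50 for Aza in dXist and -2.48 for the interaction. The interaction called no member in the other fits. The replicate block changed no other member's call. Same-numbered libraries correlated at 0.754 between the EpiSC groups, where the number follows library type. Their correlations were -0.14 and 0.0413 between WT and dXist XEN, and -0.0511 and 0.0873 between untreated and treated dXist XEN.

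Reversed log2 fold changes were uncalled in both fits. With library type in a fit of all 13 libraries, Dab2 was 0.74 for Aza in WT, and the interaction was 0.17 for Hnf4a and -0.018 for Dab2. With the block, Pdgfra was 0.30 for Aza in dXist and Hnf4a 1.44 for the interaction, which was 0.016 with DESeq2 and 0.015 with RLE size factors. Leave-one-out ranges that crossed 0 were -0.022 to 0.24 for Foxa2 in dXist XEN, -0.18 to 2.28 for Foxq1 and -0.62 to 0.030 for Dab2 with Aza in WT, and, with Aza in dXist, -0.23 to 1.72 for Hnf4a, -0.29 to 0.92 for Foxq1, -0.41 to 0.30 for Pdgfra and -0.046 to 0.93 for Dab2. For the interaction they were -0.17 to 0.38 for Sox17, -0.51 to 1.44 for Hnf4a and -1.84 to 0.63 for Foxq1, and in dXist EpiSC -0.39 to 0.94 for Gata6 and -0.47 to 1.05 for Dab2. The cause was not tested.

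Calls over all genes moved widely: 1 to 684 for dXist XEN (4 in the report's fit), 0 to 747 for Aza in WT (107), 0 to 4730 for Aza in dXist (14, the highest without treated library 2), 0 to 1605 for the interaction (45), 0 to 1960 for dXist EpiSC (0, the highest with the block), 3045 to 7893 for EpiSC against XEN in WT (6085) and 2701 to 9004 in dXist (7568). The fit of only the libraries poor in transcripts without poly(A) tails was chosen after seeing the data. With 2 or 3 libraries a group, a difference that missed the threshold is not shown to be absent.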
